A study of Mus musculus with 4 samples.

Results

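Retnla, Ear2, Chil3 and Arg1 are 4 effector genes that mouse macrophages are known to switch on in type 2, or alternative, activation. They were taken by symbol from the 32285 genes counted in CD45+ leukocytes of the hindpaw, and each symbol matched 1 row. The choice of these 4 genes, and of macrophages and other myeloid cells as the place to look, rested on their levels in the same libraries, so the levels by library and cell class below are a description and carry no test. The animals were male mice, either Lepr db/db on the C57BLKS/J background (DB), which carry a defective leptin receptor in every tissue and become obese and hyperglycaemic, or Lepr WT/WT littermates (WT). Both hindpaws were removed at the ankle, digested with collagenase and sorted for CD45, at 12 and at 21 weeks of age, so the sorted cells could include blood, skin, joint and marrow leukocytes. Each of the 4 conditions was 1 droplet library of 2 to 3 pooled mice, and the libraries are called WT12, DB12, WT21 and DB21 by genotype and age in weeks. No difference between conditions could therefore be set against replicates. The intervals given are exact, at 95%, and hold the error of counting alone.

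Alternative activation is the state that macrophages enter under IL-4 and IL-13, which bind receptors containing the IL-4 receptor alpha chain and activate the transcription factor STAT6. Retnla encodes RELMα, a small secreted protein of tissue repair and type 2 inflammation. Chil3 encodes Ym1, a secreted chitinase-like protein that neutrophils and some monocytes also make. Ear2 encodes a ribonuclease of the eosinophil-associated family. Arg1 encodes arginase 1, which splits arginine into ornithine and urea and is also made by type 2 innate lymphoid cells (ILC2).

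On the GRCm38 assembly, the build of the mm10 alignment, GENCODE vM21 places Retnla (ENSMUSG00000061100) on chromosome 16 from 48842551 to 48844461 on the plus strand, with 4 exons. Ear2 (ENSMUSG00000072596) lies on chromosome 14 from 44102654 to 44103534 on the plus strand, with 2 exons. Chil3 (ENSMUSG00000040809) spans 106147554 to 106167564 of chromosome 3 on the minus strand, with 11 exons in its longest coding transcript. Arg1 (ENSMUSG00000019987) spans 24915221 to 24927484 of chromosome 10 on the minus strand, with 8 exons. The proximal promoters of 3 of the genes are shown because these genes are known targets of IL-4 signalling. Each holds 250 bases before and 50 after the RefSeq start (GRCm38.p6), written 5′ to 3′ on the gene's strand, and capitals mark a match to TTCNNNNGAA, the spacing that STAT6 is known to favour, or to the shorter STAT-type spacing TTCNNNGAA.

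Retnla, chr16:48842359-48842658, plus strand: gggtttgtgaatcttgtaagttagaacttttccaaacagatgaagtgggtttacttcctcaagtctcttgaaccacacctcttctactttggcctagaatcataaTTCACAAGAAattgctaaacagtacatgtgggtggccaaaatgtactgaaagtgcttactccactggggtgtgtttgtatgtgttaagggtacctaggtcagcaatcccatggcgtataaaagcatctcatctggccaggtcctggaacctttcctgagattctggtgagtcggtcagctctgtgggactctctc

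Ear2, chr14:44102404-44102703, plus strand: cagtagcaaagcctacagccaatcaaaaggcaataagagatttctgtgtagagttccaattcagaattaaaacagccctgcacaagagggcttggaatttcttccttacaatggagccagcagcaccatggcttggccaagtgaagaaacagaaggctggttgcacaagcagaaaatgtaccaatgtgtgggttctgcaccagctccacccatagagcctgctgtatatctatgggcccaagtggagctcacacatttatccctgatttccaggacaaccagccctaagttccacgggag

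Chil3, chr3:106167515-106167814, minus strand: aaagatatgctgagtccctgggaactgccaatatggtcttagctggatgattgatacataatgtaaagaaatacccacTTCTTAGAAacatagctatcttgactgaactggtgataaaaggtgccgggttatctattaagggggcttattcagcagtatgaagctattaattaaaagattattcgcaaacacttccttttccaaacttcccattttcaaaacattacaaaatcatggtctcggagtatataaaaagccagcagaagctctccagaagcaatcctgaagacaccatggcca

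The Retnla window held 1 match to TTCNNNNGAA, the letters TTCACAAGAA, starting 145 bases before the RefSeq start. Both spacings read the same on either strand. Of 32851 mouse promoters of the same length, 6.95% held this motif. The Chil3 window held TTCTTAGAA, a match to TTCNNNGAA that started 172 bases before the start, and 8.30% of all promoters held that motif. Neither spacing occurred in the Ear2 window. On both strands, a C/EBP-type motif, TTNNGNAA, had 3 matches in Retnla, 1 in Ear2 and 3 in Chil3, and occurred in 40.7% of all promoters. A PU.1-type motif, GGAAGT, had 1 match in Retnla and 2 in Chil3, and occurred in 23.8% of all promoters. In both genes, 1 PU.1-type match overlapped a C/EBP-type match.

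The counts are of 3′ ends, so close relatives can share reads. Over the last 300 bases of the longest coding transcripts, Ear2 and its neighbour Ear1 aligned with 98.7% identity and a longest shared run of 93 bases. Ear1 had 1 unique molecular identifier (UMI, a tag that counts each captured molecule once) in WT12 and 1 in WT21 over all kept barcodes. Reads from Ear1 and Ear2 may not have been told apart, so the Ear2 values are uncertain in this respect. Chil3 and Chil4 aligned with 90.0% identity, with a longest shared run of 35 bases, and Chil4 had 1 UMI in all 4 libraries together. Retnla and Retnlg aligned with 81.9% identity and shared a run of 21 bases.

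With a minimum of 200 genes and a maximum of 10% mitochondrial UMIs per barcode, 5271 barcodes remained in WT12, 6552 in DB12, 7270 in WT21 and 8707 in DB21, with 46435961 to 67723605 UMIs per library. The median barcode held 5355 UMIs in DB21 and 7193.5 to 8000.5 UMIs in the other libraries. The 21-week libraries shared 146 barcodes, of which 0 were macrophages in both, the 12-week libraries shared 38, and other pairs shared 5 to 18. Without the shared barcodes, the macrophage Retnla log2 ratio of DB to WT was -1.09 at 12 weeks and -7.11 at 21 weeks, against -1.09 and -7.13 with them. Lepr had 16 to 30 UMIs per library, too few to check the genotype. Macrophages were gated by the complement genes C1qa, C1qb and C1qc, and numbered 1653, 1758, 1600 and 1457 barcodes in the order of libraries above. Pf4, a macrophage marker that the gate did not use, was at 2137 to 3801 UMIs per 1000000 UMIs of the class (CPM) in them and at 24.1 to 86.0 CPM in T cells. They were divided by Lyve1 (at least 1 UMI) and by the MHC class II gene H2-Ab1 (a log-normalised level of at least 2).

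Retnla was mostly a macrophage gene in these paws. Macrophages held 30143 of the 36877 Retnla UMIs of WT12, 16578 of 24744 in DB12, 52557 of 58130 in WT21 and 294 of 487 in DB21. Their Retnla level was 1862 CPM in WT12 (1842 to 1884), 872 CPM in DB12 (859 to 886), 2972 CPM in WT21 (2947 to 2998) and 21.2 CPM in DB21 (18.8 to 23.8). The last library stood apart from the other 3, and both WT libraries were above the DB library of their age. The log2 ratio of DB to WT was -1.09 at 12 weeks (-1.12 to -1.07) and -7.13 at 21 weeks (-7.30 to -6.97), the latter a 140-fold lower level. The 12-week difference was under 2-fold in 3 alternatives, down to a log2 ratio of -0.76 when every barcode was thinned to 2000 UMIs, whereas the 21-week ratio stayed between -7.25 and -6.60.

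Among the genes with at least 100 CPM in 1 library of a pair and at least 50 UMIs over both, 1.39% of 1794 were at least 2-fold lower and 0.446% at least 2-fold higher in DB than in WT macrophages at 12 weeks. At 21 weeks, 3.02% of 1691 were lower and 2.66% higher. Of the 4 members only Retnla passed these limits in macrophages, at both ages, and its 21-week ratio was the lowest of the 1691 genes. Since the members were chosen on this contrast, nothing is read from its place.

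Next to macrophages, type 2 conventional dendritic cells (cDC2) held the most Retnla of the named classes with many barcodes, at 422, 301, 163 and 20.1 CPM in WT12, DB12, WT21 and DB21. Like macrophages, and like the T cells given below, cDC2 had their lowest level in DB21, with 47 UMIs in 201 barcodes. In cDC2 at 21 weeks 1.42% of 1477 genes were at least 2-fold lower in DB, Retnla among them with a log2 ratio of -3.02. Retnla passed the limit of 100 CPM only through WT21, so nothing is read from its place. In cDC2 of WT21, 2 barcodes held 50% of the Retnla UMIs. Barcodes that met no gate held 1900, 5100, 1558 and 109 Retnla UMIs in the same order, so 5100 of the 24744 UMIs of DB12 lay outside the named classes. Neutrophils of DB12 were at 743 CPM, but 220 of their 242 UMIs came from 1 barcode. T cells were at 38.2, 45.7, 25.7 and 0.318 CPM, but 248 of the 493 UMIs of DB12 came from 1 barcode. In WT12, 2 T cell barcodes held 29.6% of the UMIs.

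**Figure D1:**
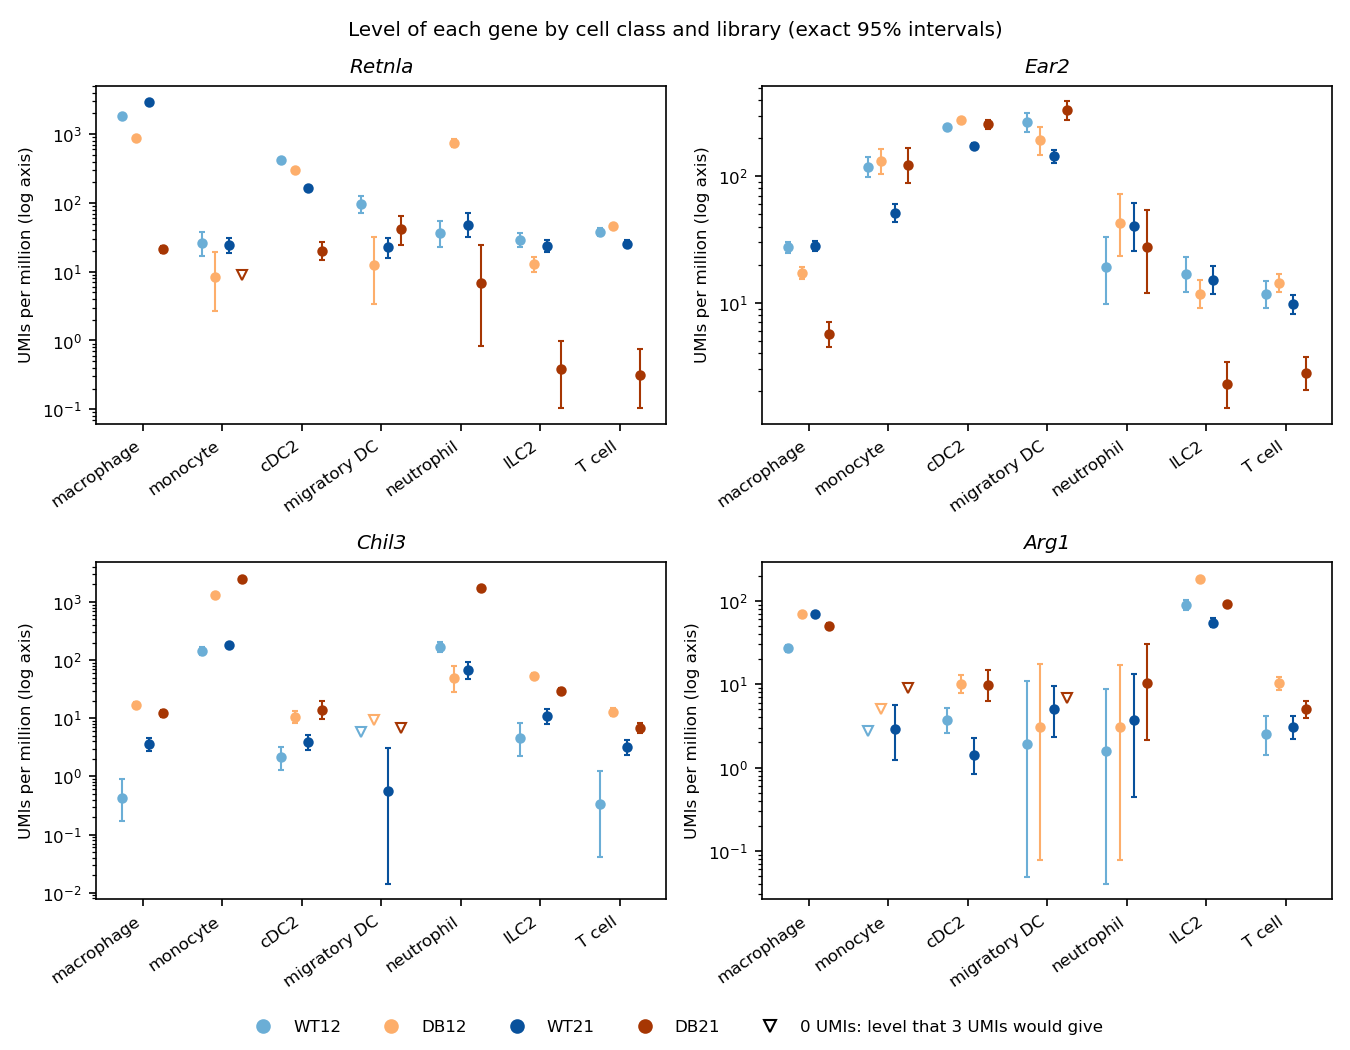
CPM (log axis) of each of the 4 genes in 7 cell classes, 1 point per library with exact 95% counting intervals; open triangles mark 0 UMIs at the level that 3 UMIs would give. Retnla peaks in macrophages of 3 libraries and is at 21.2 CPM in those of DB21, Ear2 peaks in cDC2 and migratory DC, Chil3 in monocytes and neutrophils, and Arg1 in ILC2 and macrophages.

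T cells, which should lack Retnla, are taken as the background, such as free RNA leaves in droplets. Their CPM can rest on single barcodes, as in DB12, so shares of barcodes are compared. At least 1 Retnla UMI was found in 17.4%, 10.2%, 17.0% and 0.184% of T cells (median depth 5840, 5304, 6500 and 5068 UMIs), and in 38.4%, 26.0%, 39.0% and 3.57% of macrophages (8704, 10071.5, 10240 and 8808 UMIs). With every barcode thinned to 2000 UMIs the shares were 6.07%, 4.63%, 5.79% and 0.0393% of T cells and 21.3%, 14.2%, 23.6% and 2.02% of macrophages. The thinning left out 57 to 85 macrophages per library that were shallower. Macrophages were thus above the T cell background in every library, but a single Retnla UMI does not mark a cell as a producer. The thinned shares of cDC2 were 9.40%, 7.74%, 6.70% and 1.52%. In WT21 the interval of this share, 5.14% to 8.55%, held the 5.79% of T cells. The part of background in the lower cDC2 level of DB21 was not tested.

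The RNA was concentrated in few cells. In WT12, 16 of 1653 macrophages held 50% of the macrophage Retnla UMIs, and 195 macrophages with at least 10 UMIs held 97.1% of them. In DB12 138 of 1758 macrophages reached 10 UMIs, in WT21 250 of 1600, and in DB21 5 of 1457. Of the 195 in WT12, 107 were Lyve1+MHCIIlo and 66 Lyve1+MHCIIhi cells, the subsets defined above, and of the 250 in WT21 these were 119 and 118. Of the 138 in DB12, 57 were Lyve1+MHCIIlo, 35 Lyve1+MHCIIhi and 40 Lyve1-MHCIIhi, and of the 5 in DB21, 4 were Lyve1+MHCIIlo. The macrophages with at least 10 UMIs were 11.8%, 7.85%, 15.6% and 0.343% of all macrophages. The highest single macrophage held 2248, 1482, 3168 and 51 Retnla UMIs. The gap at 21 weeks was therefore in both measures: fewer macrophages with 10 UMIs, and none above 51 UMIs. Macrophages with at least 10 Retnla UMIs were deeper than the others, with a median of 10389 against 8542.5 UMIs in WT12 and 12262.5 against 9907.5 in WT21.

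**Figure D2:**
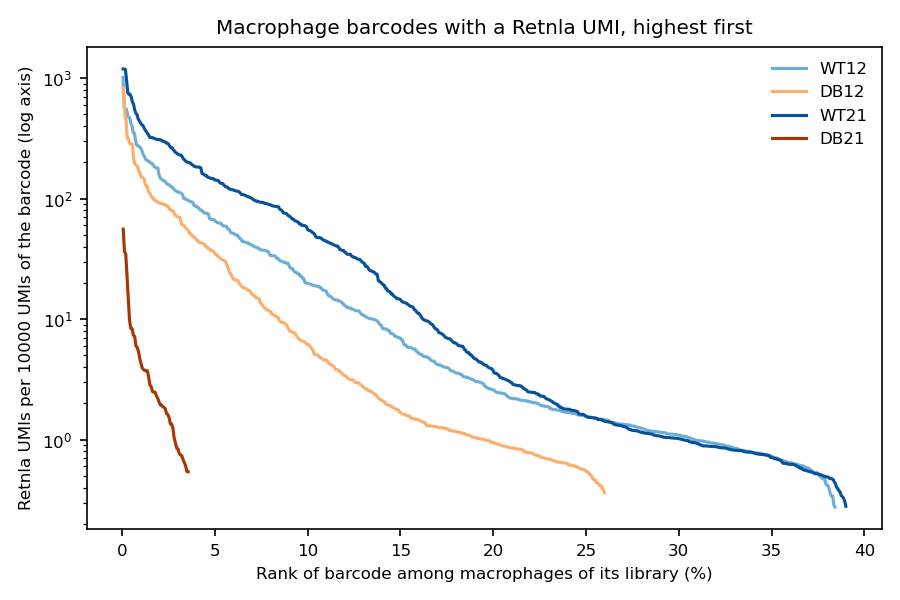
Retnla UMIs per 10000 UMIs of the barcode (log axis) against the rank of the barcode among the macrophages of its library in percent, for barcodes with at least 1 Retnla UMI and 1 line per library. The lines end at 38.4%, 26.0%, 39.0% and 3.57% of macrophages, and that of DB21 starts lower and falls earlier than the other 3.

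Among the macrophage subsets, Retnla was highest in the Lyve1+MHCIIhi cells of the first 3 libraries, at 8248 CPM in WT12 (8133 to 8364), 2506 CPM in DB12 (2442 to 2572) and 10235 CPM in WT21 (10134 to 10338). In DB21 the subset had 19 barcodes and 0 Retnla UMIs. At the level that 3 UMIs would give, the subset would be 775-fold lower than in WT21, and the exact interval of the 0 reached higher, to 16.2 CPM. In WT21, 16 of the 282 barcodes of the subset held 50% of its Retnla UMIs. Neither value covers the error of which 19 cells were sampled, so neither is a bound on the subset. Lyve1+MHCIIhi cells numbered 208, 208, 282 and 19, or 12.6%, 11.8%, 17.6% and 1.30% of macrophages. They held 53.6% of all Retnla UMIs of WT12, 23.4% in DB12 and 66.3% in WT21. The split by H2-Ab1 was made on counts from which ambient RNA was not removed. H2-Aa, another MHC class II gene, was at 808, 651, 1051 and 169 CPM in T cells, so this background differed between the libraries. Its part in the subset numbers was not tested.

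In the larger Lyve1+MHCIIlo subset, Retnla was at 871, 586, 1658 and 26.6 CPM, with log2 ratios of DB to WT of -0.57 at 12 weeks and -5.96 at 21 weeks. Lyve1-MHCIIhi macrophages ran the other way in CPM at 12 weeks, at 677 CPM in WT and 1084 CPM in DB. Few cells carried these levels: 3 of 370 barcodes of WT12 and 7 of 433 of DB12 held 50% of the UMIs. The share with at least 1 Retnla UMI was 29.7% in WT12 and 23.6% in DB12, and 13.7% in both after thinning. At 21 weeks the subset was at 182 and 21.9 CPM, and all 35 UMIs of DB21 came from 1 barcode. Lyve1-MHCIIlo macrophages were the lowest of the 4 subsets in each of the first 3 libraries, at 168, 138 and 24.1 CPM, and at 0.429 CPM in DB21. The 12-week difference in CPM between DB and WT was therefore not in 1 direction across the subsets, though the exception rested on few cells. At 21 weeks all 4 were lower in DB. The Lyve1-MHCIIlo value of WT21 came from 18 UMIs and was no higher than the 25.7 CPM of T cells in that library. T cells of DB21 were at 0.318 CPM, so the lower level of this subset is not read as a change in its own Retnla.

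The mix of subsets changed with the level, and both can be set side by side. The subset shares here and below rest on the split by H2-Ab1, with the limit given above. With the WT21 subset levels weighted by the subset shares of UMIs in DB21, macrophage Retnla would be 1354 CPM, a log2 ratio of -1.13 to WT21. With the DB21 levels weighted by the WT shares it would be 18.4 CPM, a log2 ratio of -7.34. The log2 ratio of DB to WT at 21 weeks was thus -7.34 at the WT shares and, with the same DB21 level of 21.2 CPM against 1354 CPM, -6.00 (63.8-fold) at the DB shares. At 12 weeks it was -1.01 at the WT shares and -0.90 at the DB shares.

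**Figure D3:**
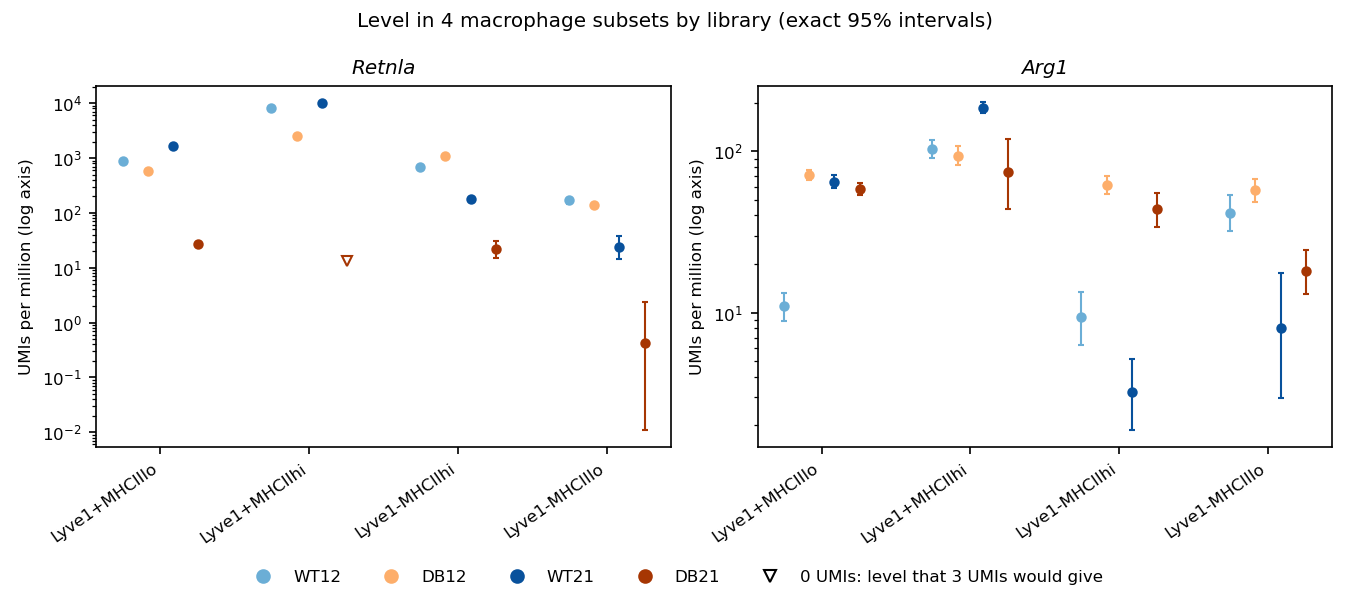
CPM (log axis) of Retnla and Arg1 in the 4 macrophage subsets, 1 point per library with exact 95% counting intervals; the open triangle marks 0 UMIs in the 19 Lyve1+MHCIIhi barcodes of DB21, at the level that 3 UMIs would give. Retnla of DB21 lies below the other 3 libraries in every subset, and Arg1 does not.

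Arg1, the arginase, had 2 main places: ILC2 and macrophages. ILC2 were at 89.7 CPM in WT12 (78.2 to 103), 182 CPM in DB12 (171 to 195), 55.1 CPM in WT21 (48.2 to 62.7) and 92.0 CPM in DB21 (86.3 to 98.0). Both DB libraries were above the WT library of their age, with log2 ratios of 1.02 (0.81 to 1.24) and 0.74 (0.53 to 0.96). In ILC2, 0.558% of 1614 genes were at least 2-fold higher in DB at 12 weeks, Arg1 among them. Arg1 passed the limit of 100 CPM only through DB12, so nothing is read from its place. At 21 weeks Arg1 did not reach 100 CPM in either library. At least 1 Arg1 UMI was found in 23.8%, 44.1%, 23.4% and 28.6% of ILC2 (median depth 6604, 6335, 6764.5 and 5712.5 UMIs) against 1.50%, 3.84%, 1.62% and 1.84% of T cells. Most of these ILC2 held few Arg1 UMIs each: only 2, 5, 1 and 1 reached 10 UMIs. The gate for ILC2 used Il13 and Areg among its markers, and no member gene.

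In macrophages Arg1 was at 27.1 CPM in WT12 (24.6 to 29.8), 70.0 CPM in DB12 (66.3 to 73.8), 69.8 CPM in WT21 (66.0 to 73.9) and 50.1 CPM in DB21 (46.4 to 53.9). It was higher in DB at 12 weeks, with a log2 ratio of 1.37 (1.21 to 1.53), and lower at 21 weeks, at -0.48 (-0.62 to -0.35). The same 21-week libraries in which macrophage Retnla differed 140-fold thus differed 1.40-fold in Arg1. Few cells carried a large share of it: the macrophages with at least 10 Arg1 UMIs numbered 15, 34, 46 and 17 and held 60.1%, 79.6%, 67.0% and 42.8% of the macrophage Arg1 UMIs. Lyve1+MHCIIhi cells were the highest subset in each library, at 104, 93.6, 186 and 74.8 CPM in WT12, DB12, WT21 and DB21. The DB21 value came from 17 UMIs in 4 of 19 barcodes. Its interval, 43.6 to 120 CPM, held the 58.2 CPM of Lyve1+MHCIIlo cells, so the order in that library is open. The lowest subset was Lyve1-MHCIIhi in WT12 and WT21, at 9.37 and 3.20 CPM, and Lyve1-MHCIIlo in DB12 and DB21, at 57.2 and 18.0 CPM. With subset shares held at those of WT the 21-week log2 ratio was -0.33, and at those of DB it was -0.0049, so its size depended on the mix of subsets. Lyve1+MHCIIlo cells held 10.9 CPM in WT12 and 71.1 CPM in DB12, a log2 ratio of 2.70 (2.40 to 3.02), and 2 of the 859 barcodes of DB12 had at least 100 Arg1 UMIs.

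Chil3, the gene of Ym1, was nearly absent from macrophages of WT mice and high in a small monocyte class. Monocytes, gated by Plac8 or Ly6c2 with Lst1 and Ifitm3, were at 146 CPM in WT12 (124 to 171), 1344 CPM in DB12 (1253 to 1440), 181 CPM in WT21 (166 to 198) and 2531 CPM in DB21 (2364 to 2707). Both DB libraries were above both WT libraries, with log2 ratios of 3.20 at 12 weeks (2.95 to 3.46) and 3.81 at 21 weeks (3.64 to 3.97). These values came from 119, 78, 283 and 35 barcodes. The gate left out barcodes that passed the threshold of the ILC2 markers. Lmo4 counts towards that threshold and was at 237 to 361 CPM in monocytes. In monocytes 2.07% of 1591 genes were at least 2-fold higher in DB at 12 weeks and 3.87% of 1473 at 21 weeks, Chil3 among them at both ages. Since the members were chosen on their levels in these libraries, nothing is read from its place. At least 1 Chil3 UMI was found in 40.3%, 75.6%, 44.5% and 82.9% of monocytes (median depth 8767, 6815.5, 9353 and 8971 UMIs) against 0.230%, 1.22%, 0.647% and 0.663% of T cells.

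The monocyte markers moved with the groups too, and not all in 1 direction. In monocytes Ly6c2, the classical monocyte antigen, was at 1412, 618, 667 and 441 CPM, and Plac8 at 2725, 1237, 1940 and 721 CPM, each with a lower level in DB than in WT of the same age. Thbs1, which encodes thrombospondin 1, was at 395, 848, 963 and 1750 CPM, higher in DB. Ccr2 was at 1163, 1053, 883 and 632 CPM, Lst1 at 1325, 1242, 997 and 879 CPM, and Ifitm3 at 2725, 1951, 2394 and 1506 CPM. Of these markers Plac8, Ly6c2, Lst1 and Ifitm3 were used in the gate. The part of these differences between the monocyte classes in the Chil3 values was not tested.

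Chil3 was also found in neutrophils, at 167 CPM in WT12 (136 to 202), 49.1 CPM in DB12 (28.1 to 79.7), 68.5 CPM in WT21 (48.3 to 94.5) and 1736 CPM in DB21 (1588 to 1894). The DB21 library stood far above the others, and 11 of its 56 neutrophils held 95.4% of these UMIs. Macrophages were at 0.433, 17.0, 3.56 and 12.1 CPM, and 7 UMIs made up the first of these values. T cells were at 0.338, 12.8, 3.22 and 6.93 CPM, so by CPM the macrophage levels stood little above the T cell background. The 138 T cell UMIs of DB12 came from 21 barcodes. At least 1 Chil3 UMI was found in 0.423%, 4.72%, 2.06% and 2.54% of macrophages, against 0.230%, 1.22%, 0.647% and 0.663% of T cells. After thinning, the shares were 0%, 2.35%, 0.726% and 0.936% of macrophages and 0%, 0.427%, 0.221% and 0.432% of T cells. Macrophages were thus above T cells by share, in WT12 on 7 barcodes against 2, and after thinning the intervals were apart only in DB12. Since CPM and share gave different distances from T cells, the ratio of DB to WT in macrophages is not read as a change in their own Chil3. Under the stricter macrophage gate and the thinning, the macrophage log2 ratio at 21 weeks moved between 2.26 and 0.47 from 1.77. In DB12 neutrophils held 16 Chil3 UMIs, fewer than macrophages with 324 and the ILC2 class with 269. Barcodes that met no gate held 13.6%, 16.1%, 17.0% and 22.1% of all Chil3 UMIs. The ILC2 class held 4.57, 53.0, 10.9 and 29.8 CPM, with 8 barcodes of DB12 and 8 of DB21 at 10 UMIs or more. Only 21 of its 764 barcodes in DB12 and 27 of 1736 in DB21 held any Chil3 UMI. The gates could place monocytes with Lmo4 in this class, so these values are not read as Chil3 made by ILC2. Among the relatives, Chil1 was at 44.7 to 87.1 CPM in neutrophils, and Retnlg, the resistin-like gene that helped to gate them, at 2789 to 7631 CPM.

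Ear2 was a gene of dendritic cells rather than macrophages in these libraries. cDC2 were at 245 CPM in WT12 (235 to 255), 276 CPM in DB12 (264 to 289), 174 CPM in WT21 (166 to 181) and 257 CPM in DB21 (236 to 278). The log2 ratio of DB to WT was 0.17 at 12 weeks (0.09 to 0.26) and 0.56 at 21 weeks (0.43 to 0.69), both under 2-fold. Migratory DC, defined by Ccr7 and Fscn1, were at 266, 192, 143 and 332 CPM, from 26 to 117 barcodes. In the order of the libraries, cDC2 held 63.0%, 59.8%, 56.0% and 49.2% of all Ear2 UMIs. At least 1 Ear2 UMI was found in 36.4%, 34.8%, 34.0% and 40.3% of cDC2 (median depth 12860, 11779, 12883.5 and 10874 UMIs) and in 2.42%, 1.80%, 1.99% and 0.295% of T cells. Monocytes were at 119, 132, 51.5 and 122 CPM.

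Macrophages were at 27.4, 17.1, 28.1 and 5.63 CPM of Ear2, with log2 ratios of DB to WT of -0.68 at 12 weeks (-0.89 to -0.47) and -2.32 at 21 weeks (-2.68 to -1.97). The Ear2 of macrophages lay in the MHCIIhi cells: Lyve1-MHCIIhi cells were at 115, 45.0, 81.3 and 19.4 CPM and Lyve1+MHCIIlo cells at 1.30, 1.79, 1.65 and 0.412 CPM. At the WT subset shares the 21-week log2 ratio would be 0.66 in place of -2.32, and at the DB shares -0.97. The first of these rested on 41 UMIs in the 19 Lyve1+MHCIIhi barcodes of DB21, of which 30 came from 1 barcode. With a stricter macrophage gate it was -3.78. Ear2 is named for eosinophils, but the eosinophil granule gene Epx had 0 UMIs in every library and Prg2 had 1 to 11 UMIs over all kept barcodes. Siglecf had 15 to 31 UMIs and Ccr3 110 to 188 UMIs per library.

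The 4 genes thus did not share 1 pattern. Over 39 sums of a library and a myeloid class with at least 100000 UMIs, the Spearman correlation of Retnla was 0.51 with Arg1, -0.09 with Ear2 and -0.08 with Chil3, and that of Ear2 with Arg1 was -0.35. These sums share libraries and depth, and the values only describe the order of levels. The genes most like Retnla of 3259 searched were Dok2, Vamp8, Slamf9, Atp2a3 and Prkar1a, with correlations of 0.77 to 0.75. Those most like Arg1 were Peak1, Cav1, Aqp1, Cavin1 and Evi5 (0.87 to 0.83), and those most like Chil3 were Msrb1, Hp, Mgst1, Mrpl33 and Tmem71 (0.86 to 0.81). Those most like Ear2 were Gm15987, Clec4b1, Ifi30, Sec61b and Etv6 (0.81 to 0.75).

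The question of what else differed in macrophages with Retnla was put to the 4 libraries as replicates. Macrophages were thinned to 2000 UMIs and divided into those with and without a Retnla UMI, 337 and 1246 in WT12, 241 and 1460 in DB12, 358 and 1157 in WT21 and 28 and 1361 in DB21. Summed counts were compared within libraries by edgeR's quasi-likelihood test, with Benjamini-Hochberg adjustment over 9658 genes and Retnla left out. At an adjusted p under 0.05, 70 genes (0.725%) were higher and 81 (0.839%) lower in Retnla-positive macrophages. A single UMI can also be free RNA, as the thinned T cells above show. The fit did not adjust for macrophage subset, and the subsets differed in their share of positive cells. In WT21 after thinning these shares were 50.6% of Lyve1+MHCIIhi, 26.0% of Lyve1+MHCIIlo, 8.76% of Lyve1-MHCIIhi and 4.82% of Lyve1-MHCIIlo cells. The part of subset in the rises and falls was not tested. Of the other members, Arg1 rose with Retnla, and Ear2 and Chil3 did not pass the test.

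Arg1 was at 38.8 CPM in Retnla-positive and 9.63 CPM in Retnla-negative macrophages of WT12, 129 and 45.2 CPM in DB12, 179 and 17.7 CPM in WT21, and 179 and 37.8 CPM in DB21. The positive cells were higher in 4 of 4 libraries, by a log2 fold of 2.25 ± 0.19 (SE, edgeR adjusted p = 2.11e-20). Here and below, the SE is the log2 fold divided by the square root of the F statistic of the fit. The fit estimates variance with help from all genes. Neither SE nor p measures how far the fold of a gene differed between the libraries, which the pairs of CPM show. Ear2 was higher in 2 libraries and lower in 2, with a log2 fold of 0.03 ± 0.28 (edgeR adjusted p = 0.996), and Chil3 had a log2 fold of 0.03 ± 0.51 (edgeR adjusted p = 0.998).

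The largest rise was that of Rnase2a, a ribonuclease of the same family as Ear2. Rnase2a was at 77.6 CPM with Retnla and 3.61 CPM without in WT12, 192 and 19.9 CPM in DB12, 405 and 3.46 CPM in WT21, and 17.9 and 4.04 CPM in DB21. The DB21 value of 17.9 CPM was 1 UMI, since the 28 positive barcodes of that library summed to 56000 UMIs. The log2 fold was 4.43 ± 0.21 (edgeR adjusted p = 1.04e-42), and 4.52 without DB21 (edgeR adjusted p = 4.40e-10). The size of the rise differed between the libraries by more than this SE. In all macrophages Rnase2a was at 41.3, 49.9, 113 and 2.67 CPM, a log2 ratio of DB to WT of 0.27 at 12 weeks and -5.41 at 21 weeks. Its highest subset in the first 3 libraries was Lyve1+MHCIIhi, at 237, 199 and 416 CPM, as for Retnla, and that subset held 1 Rnase2a UMI in DB21. Ear2 and Rnase2a aligned with 85.9% identity over the last 300 bases and a longest shared run of 46 bases.

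Slc7a2, which encodes a cationic amino acid transporter that brings arginine into the cell, rose next to Arg1. It was at 330 and 165 CPM in positive and negative macrophages of WT12, 801 and 170 CPM in DB12, 2436 and 453 CPM in WT21, and 822 and 299 CPM in DB21. The log2 fold was 1.83 ± 0.11 (edgeR adjusted p = 6.76e-31). In all macrophages Slc7a2 was at 293, 315, 1108 and 341 CPM, with log2 ratios of DB to WT of 0.11 at 12 weeks and -1.70 at 21 weeks. The other arginine genes did not pass the test: Ass1, Asl, Odc1, Oat, Srm, Sms and Slc7a1 had log2 folds between -0.24 and 0.22. Nos2, the inducible nitric oxide synthase that competes for arginine, had 0, 24, 0 and 1 UMIs in the macrophages of the 4 libraries.

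Of the 28 alternative activation markers counted, 27 were tested, and 11 rose and 0 fell in Retnla-positive macrophages. Over all 9658 genes 0.725% rose and 0.839% fell. The median log2 fold of the markers was 0.39 beside -0.02 over all genes. At an unadjusted edgeR p under 0.05 the marker counts were 16 and 2, beside 325 and 442 of the 9658 genes. DESeq2 called 2 markers higher and 0 lower, beside 15 and 0 of 17678 genes. The list was drawn up with earlier results of these data known. Among those higher in 4 of 4 libraries were the chemokine gene Ccl17, with a log2 fold of 1.67 ± 0.20, the lectin gene Cd209d at 1.21 ± 0.14 and Cbr2 at 0.45 ± 0.11 (edgeR adjusted p of 2.13e-11, 7.56e-12 and 0.00804). In the positive cells of DB21, Ccl17 had 2 UMIs and Cd209d 3, so their direction in that library rests on few molecules. Alox15, Cd209f, Ccl22, Clec10a, Mgl2, Ccl24, Fn1 and Igf1 also rose, each in 2 or 3 of the 4 libraries. Mrc1, the mannose receptor CD206, was at 1747 and 1470 CPM in WT12 and 340 and 614 CPM in DB21, with a log2 fold of 0.02 ± 0.09 (edgeR adjusted p = 0.996). Cd163 was at 0.03 ± 0.10 (edgeR adjusted p = 0.994).

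The receptor and the transcription factors of the program are set beside the shares over all 9658 genes, 0.725% higher and 0.839% lower. Counts of 0 or 1 among 11 genes are near those shares and are not read as a result about these genes. Of the 11 receptor and signalling genes 0 rose (edgeR, also at an unadjusted p under 0.05, and DESeq2) and 1 fell, Socs3, a feedback inhibitor of cytokine signalling, at a log2 fold of -0.60 ± 0.16. Il4ra was at 0.08 ± 0.16 and Stat6 at -0.15 ± 0.15. Of 11 transcription factors 0 passed with edgeR or DESeq2, and 2 higher and 1 lower had an unadjusted edgeR p under 0.05. Klf4 was at 0.09 ± 0.10, Irf4 at 0.33 ± 0.16 and Egr2 at 0.23 ± 0.22, and Cebpb, at -0.35 ± 0.10, had the lowest edgeR adjusted p of 0.061. Lyve1, which divides the subsets, rose by a log2 fold of 0.56 ± 0.09, and H2-Ab1 was at -0.15 ± 0.09.

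The remaining named rises were C4b (complement C4, log2 fold 1.0), Ccl6 (a chemokine, 0.95), Gfra2 (a receptor for neurturin, 0.85), Qpct (glutaminyl cyclase, 0.81) and Rhoc (a small GTPase, 0.78). The largest named falls were Cxcl13, the B cell chemokine, at -1.52, Ccrl2 at -1.0, Gadd45b at -0.94, Spp1, the gene of osteopontin, at -0.88, and Pla2g7 at -0.85. They also held Tnfsf9, Tnfaip3 and Nlrp3, genes of the NF-kB response and the inflammasome, at -0.82, -0.81 and -0.81, with Aopep at -0.74 and Cd93 at -0.70. In the positive cells of DB21, Cxcl13, Ccrl2 and Tnfsf9 had 1 UMI each, Gadd45b 2 and Spp1 0. Gfra2 and Nlrp3 had 3 each there, Aopep 4, and Tnfaip3 and Cd93 5 each. The direction of all these genes in that library rests on few molecules. Of the 6 monocyte markers, Lst1, Ly6c2, Plac8 and Thbs1 fell by 1.0 to 1.99 on the log2 scale and Ifitm3 rose by 0.41, and of the cDC2 markers Clec10a rose and Flt3 fell. Of the 5 macrophage markers 0 passed the test of edgeR or DESeq2, and 4 had an unadjusted edgeR p under 0.05, C1qa and C1qc higher and Pf4 and Apoe lower, at log2 folds of -0.24 to 0.23.

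The rises were steadier than the falls. With DESeq2, 8 of the 10 named rises and 0 of the 10 named falls passed, and with all UMIs of each barcode 10 rises and 3 falls. Without the library as a block 1 rise, Rnase2a, and 0 falls passed.

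**Figure D4:**
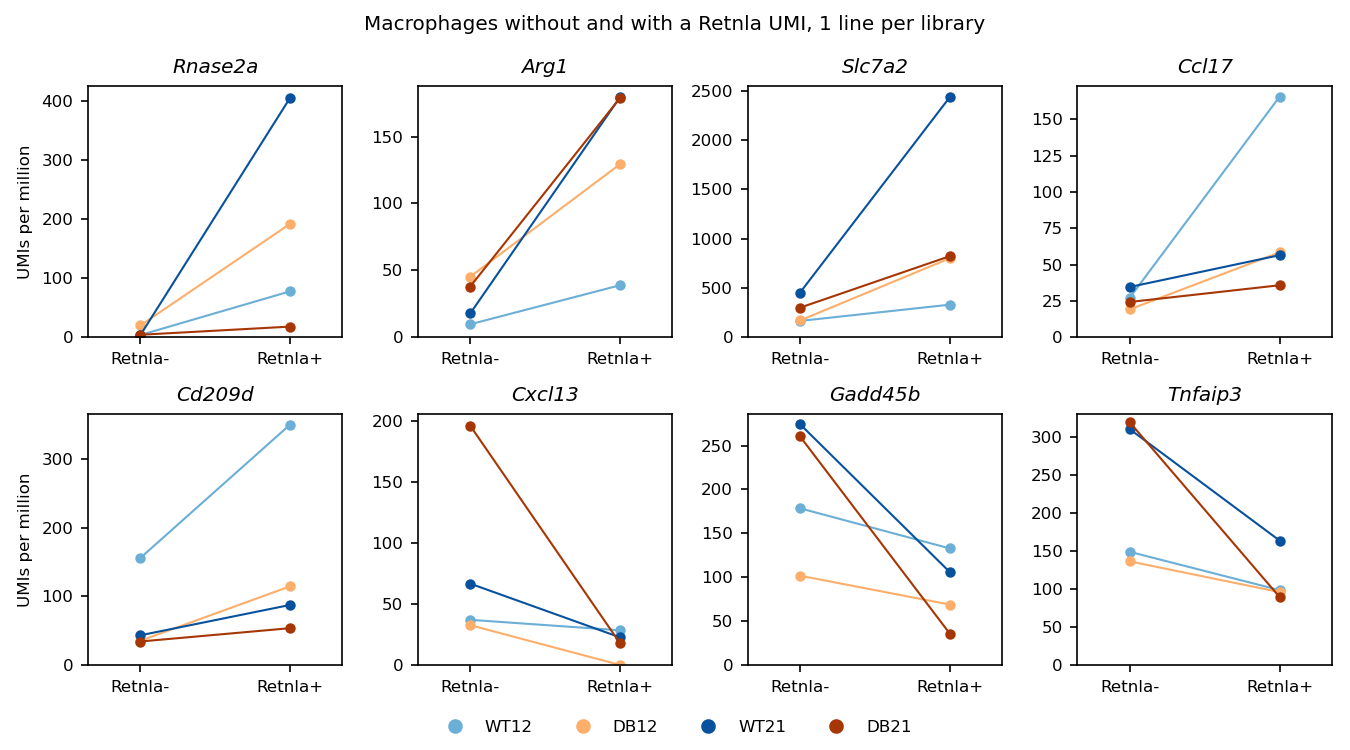
CPM of 8 genes in macrophages without (left) and with (right) a Retnla UMI, after thinning to 2000 UMIs, with 1 line per library. Rnase2a, Arg1, Slc7a2, Ccl17 and Cd209d are higher with Retnla in 4 of 4 libraries, and Cxcl13, Gadd45b and Tnfaip3 are lower in 4 of 4. The DB21 points with Retnla are 1 UMI each for Rnase2a and Cxcl13, 2 each for Ccl17 and Gadd45b, 3 for Cd209d and 5 for Tnfaip3.

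The markers of the program were also compared between DB and WT macrophages, as a description. Of the 28 markers counted, 17 passed the limits on level at 12 weeks. Of these, 5 were at least 2-fold lower in DB and 0 higher: Ccl17 (108 to 27.0 CPM), Cd209d (131 to 42.7), Ccl8 (441 to 174), Cbr2 (539 to 239) and Mgl2 (122 to 54.7). The median log2 ratio was -0.53, beside 0.04 over the 1794 genes, of which 1.39% were lower and 0.446% higher by this measure. At 21 weeks 13 passed, of which Fn1 (2345 to 527 CPM) and Cbr2 (244 to 119) were at least 2-fold lower and Clec10a (76.3 to 219) higher. Their median was -0.47 beside 0.05 over the 1691 genes, of which 3.02% were lower and 2.66% higher. With the limit of 50 UMIs alone, 27 markers could be compared, and 12 were at least 2-fold lower and 0 higher at 12 weeks, 8 lower and 1 higher at 21 weeks. The share over all genes was not counted at this limit, so nothing is read from these counts. Mrc1 fell short of 2-fold at both ages, with WT and DB levels of 1269 and 897 CPM and then 835 and 552 CPM. None of these markers was near the log2 ratio of Retnla at 21 weeks, and the relative Rnase2a, at -5.41, was the nearest of the genes on the lists that passed the limits.

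**Figure D5:**
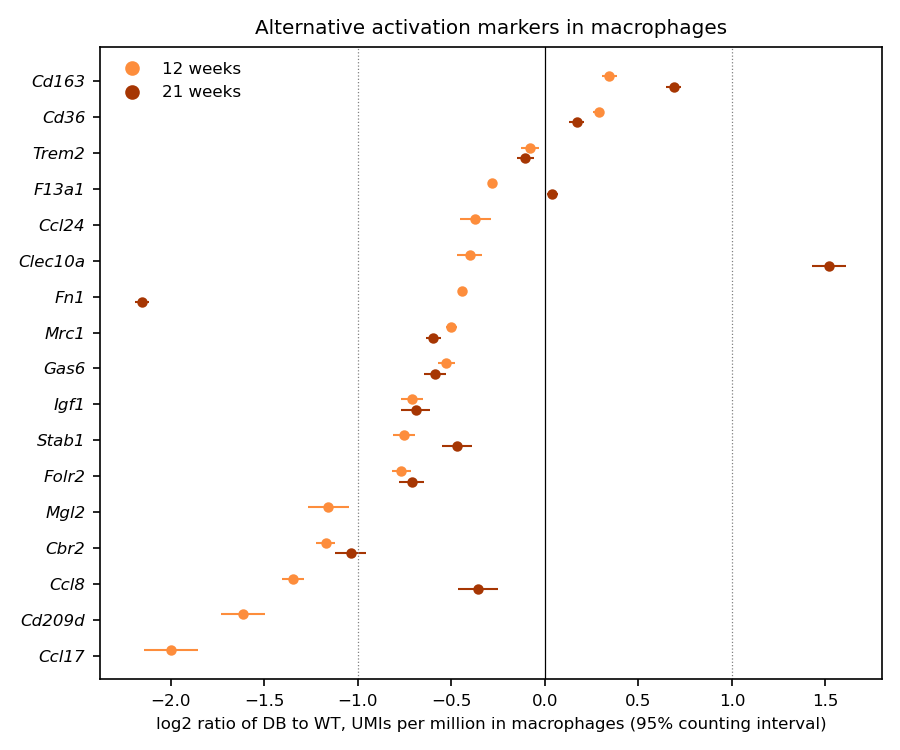
Log2 ratio of DB to WT in macrophages for the alternative activation markers that passed the limits on level, at 12 and 21 weeks, with exact 95% counting intervals; dotted lines mark a 2-fold difference. Most points lie between -1 and 0, Fn1 is at -2.15 and Clec10a at 1.52 at 21 weeks.

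The receptor, signalling and transcription factor genes that passed the limits on level had ratios under 2-fold, but some transcription factors below those limits did not. Of 11 receptor and signalling genes, 3 passed the limits at 12 weeks and 2 at 21 weeks, and 0 were past 2-fold. Counts of 0 among so few genes are near the shares over all genes given above and are not read as a result. Stat6 was at 95.3 and 102 CPM in WT12 and DB12. Of 12 transcription factors, 5 and 6 passed and 0 of these were past 2-fold, the largest ratio being -0.92 for Bhlhe40 at 21 weeks. With the limit of 50 UMIs alone, all 12 could be compared, and 3 were at least 2-fold lower in DB at 21 weeks: Irf4 (57.2 to 23.2 CPM, log2 ratio -1.30), Batf3 (21.5 to 5.99 CPM, -1.84) and Ppargc1b (15.2 to 7.07 CPM, -1.11). None was past 2-fold at 12 weeks. Neither these genes nor the markers above were reweighted by subset shares, so the part of the subset mix in their ratios was not tested. The 11 receptor and signalling genes all reached 50 UMIs, and 0 were past 2-fold at either age. For these lists too, the share over all genes was not counted at the limit of 50 UMIs alone. Il13, one of the ligands, was at 353, 338, 464 and 540 CPM in ILC2 and at 118, 112, 374 and 562 CPM in mast cells of WT12, DB12, WT21 and DB21. Il4 was at 106, 91.1, 122 and 193 CPM in mast cells and at 14.1, 7.49, 25.8 and 16.8 CPM in ILC2. The Il13 of ILC2 is in part a product of the gate, which used that gene.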

How the data were processed

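The authors ran Cell Ranger on reads of 10x 3′ v3 libraries of sorted hindpaw leukocytes, with mm10 as the reference, and the deposited tables hold raw UMI counts, not normalized. Per the file headers, version 5.0.0 made the WT12 and DB12 tables and version 6.0.0 the WT21 and DB21 tables, so software and age cannot be told apart. Ambient RNA, which the study removed with decontX, was not removed here. The 4 members, the gene lists, the alternatives and the rule for named genes were chosen with earlier results of these data known, and gate thresholds were set after marker levels were seen. The text names the members, genes of the lists, the 5 genes most like each member, and the 10 largest rises and falls of the edgeR test that averaged 50 CPM or more and kept 1 sign in 4 libraries.

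Kept barcodes were gated by marker UMIs per 10000, and summed counts per class were scaled to 1000000 UMIs (CPM). Intervals are Poisson for CPM, Clopper-Pearson for shares and conditional binomial for ratios, and a fold against a count of 0 is given at 3 counts. They cover counting error only. Likely doublets were kept, because Scrublet's own threshold marked 0.0 to 1.13% of barcodes, and were removed as an alternative at 0.8% per 1000 barcodes. The only test used edgeR 4.0.16 in R 4.3.3 (TMM, filterByExpr, library as a block). On simulated counts of 9507 genes it recovered 84% of 100 genes changed 2-fold and 99% of 100 changed 4-fold, with 4 false calls. The changed genes were drawn only from those with higher mean counts, and all genes had a common dispersion. Recovery of genes with low counts was therefore not measured. DESeq2 1.42.0 was an alternative. Promoters were read from RefSeq tables and transcripts from GENCODE, and 3 of the 4 members had a promoter there.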

Additional observations from a re-analysis of the deposited data

Results flagged for a closer look

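Several ratios of DB to WT had opposite signs at 12 and 21 weeks, with counting intervals that left out 0 at both ages. Arg1 in macrophages had a log2 value of 1.37 at the younger age and -0.48 at the older, the latter nearer to 0, at -0.25, with at most 5% mitochondrial UMIs and at -0.0049 with both libraries at the DB subset shares. Retnla in Lyve1-MHCIIhi macrophages was at 0.68 and -3.05. Few cells carried its 12-week levels, and its value of DB21 came from 35 UMIs of 1 barcode. Chil3 in neutrophils was at -1.77 and 4.66, with 16 UMIs in DB12 and 505 in DB21. Ear2 in migratory DC was at -0.47 and 1.21, from 26 to 117 barcodes. In macrophages Rnase2a was at 0.27 and -5.41, Slc7a2 at 0.11 and -1.70, and Clec10a at -0.40 and 1.52. None of these differences between the ages was tested, because each condition was 1 library.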

How the results depend on the processing

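The 8 macrophage log2 ratios of DB to WT kept their sign under each alternative filter, gate, depth and scaling, but Ear2 at 21 weeks turned from -2.32 to 0.66 at the WT subset shares. Retnla at 12 weeks was -1.01 with at most 5% mitochondrial UMIs, -0.93 without likely doublets, -0.94 with a stricter gate and -0.76 thinned to 2000 UMIs. At 21 weeks it was -6.60 without likely doublets and -6.96 thinned. Ear2 was -0.97 without likely doublets at 12 weeks and -3.78 with the stricter gate at 21 weeks. Chil3 at 21 weeks was 2.26 with the stricter gate and 0.47 thinned. Arg1 was 1.62 with the stricter gate and 1.85 thinned at 12 weeks, and -0.25 with at most 5% mitochondrial UMIs at 21 weeks. TMM factors moved none beyond its interval. The cause of these shifts was not tested. Leaving out barcodes shared between libraries, an alternative added after seeing the data, moved no ratio beyond its interval. Counting list genes with a limit on UMIs alone was also added after seeing the data.

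For Retnla-positive macrophages, DESeq2 called 15 genes higher, all 15 of them also called by edgeR, and 0 lower (143 lower at an unadjusted p under 0.05). Without the library as a block edgeR called 1 higher and 0 lower (161 lower at an unadjusted p under 0.05). With all UMIs of each barcode 41 were lower. Leaving out 1 library at a time gave 34 to 60 higher and 20 to 74 lower. Without WT21 these were 34 and 20, without DB12 44 were higher, and without DB21 33 were lower. Chil3 changed sign with DESeq2 (-0.11), without a filter (-0.0029), with all UMIs (-0.41) and without likely doublets (-0.14), and Ear2 without a filter (-0.0015) and between -0.30 and 0.47 with 1 library left out. Neither passed the test in any of these. Arg1 passed in all but the fit without the library block, where its log2 fold was 2.10. Positive and negative cells were paired within libraries by the block. No paired analysis was possible because each condition had 1 library, where DB was compared with WT. Depth limited Chil3 in macrophages of WT12 (7 UMIs) and the 19 Lyve1+MHCIIhi barcodes of DB21.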
